A study of Mus musculus with 2 samples.

Results

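The genes described here are the receptors, ligands, inhibitors and immediate targets of bone morphogenetic protein (BMP) and ALK1 signaling in the endothelium of mouse tumors. They are Acvrl1, Eng, Bmpr2, Smad6, Smad7, Id1, Id2, Id3, Bmp4 and Bmp6, 10 of the 31055 genes counted in each library. They were chosen by symbol, for their place in the pathway, with earlier results of these data known, and all 10 were found in both libraries.

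The values come from single-cell RNA sequencing (scRNAseq) of endothelial cells sorted from tumors of wild-type female C57BL6 mice aged 6 weeks, taken 10 days after orthotopic implantation of 100000 tumor cells. The PyMT line is mammary and comes from the MMTV-PyMT transgenic strain, and the KPC cells are a pancreatic line from p48-Cre mice whose alleles include altered p53. The sort left out cells positive for CD45, EpCAM, Ter119, podoplanin or Annexin V. Each tumor model had 1 library, and the number of mice behind it is not stated. The tumor, its organ, the collagenase concentration of the digest and the library therefore cannot be told apart, no test was possible, and each interval below is a 95% interval that covers counting error only.

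In endothelial cells, circulating BMP9 and BMP10 bind ALK1, the type I receptor encoded by Acvrl1, together with the type II receptor BMPR2 and the co-receptor endoglin. The activated complex phosphorylates SMAD1 and SMAD5, which enter the nucleus with SMAD4 and raise transcription of the Id genes and of the inhibitory Smads, which in turn dampen the receptors. The pathway is known for restraining vessel sprouting and for arteriovenous identity, and loss of ALK1, endoglin or SMAD4 leads to arteriovenous malformations.

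Promoter sequences are shown for Smad6, Eng and Bmp4, a target, a co-receptor and a ligand whose levels differed between vessel classes and whose transcription start in the RefSeq table falls on the first base of the GENCODE gene. Each run holds the 250 bases before the start, 5′ to 3′ on the strand of the gene, in GRCm38.p6. Capitals mark GTCT and its reverse complement AGAC, the short Smad-binding letters. On either strand, these letters were found in 83% of 27025 promoters of that length, and GGCGCC, the GC-rich palindrome bound by SMAD1 and SMAD5, in 9.54%.
Smad6, chr9:64022060-64022309, reverse strand: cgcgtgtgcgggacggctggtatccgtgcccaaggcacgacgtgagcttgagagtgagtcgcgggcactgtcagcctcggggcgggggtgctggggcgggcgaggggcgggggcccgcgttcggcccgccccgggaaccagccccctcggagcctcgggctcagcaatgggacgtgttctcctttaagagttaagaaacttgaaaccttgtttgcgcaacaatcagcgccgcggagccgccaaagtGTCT
Eng, chr2:32646345-32646594, forward strand: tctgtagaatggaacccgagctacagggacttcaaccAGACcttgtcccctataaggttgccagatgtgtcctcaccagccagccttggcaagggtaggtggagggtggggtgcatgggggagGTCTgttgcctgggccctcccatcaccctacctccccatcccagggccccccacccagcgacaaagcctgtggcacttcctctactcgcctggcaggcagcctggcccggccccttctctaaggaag
Bmp4, chr14:46390670-46390919, reverse strand: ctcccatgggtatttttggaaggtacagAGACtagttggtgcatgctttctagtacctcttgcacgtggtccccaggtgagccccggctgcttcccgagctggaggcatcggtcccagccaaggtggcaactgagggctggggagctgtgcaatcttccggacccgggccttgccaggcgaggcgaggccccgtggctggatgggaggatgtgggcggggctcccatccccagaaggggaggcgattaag
In Smad6 the GTCT match ended at the base before the start, counted as position -4 for its first base. Eng held matches at -213 and -127 and Bmp4 held 1 at -222, and none of these 3 windows held GGCGCC. In all, 7 of the 10 genes had an entry in the promoter table, and among these GGCGCC was found in Bmpr2 at -105 and in Id2 at -231.

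The PyMT library held 55547926 unique molecular identifiers (UMIs, each counting a captured transcript once) in 12464 barcodes, and the KPC library held 44441942 in 10236. Barcodes needed 500 or more detected genes and a mitochondrial share of UMIs below 10% to be kept, so that 11744 (PyMT) and 9591 (KPC) remained, and 151 barcodes were found in both libraries. Kept barcodes were assigned to classes by UMI sums of marker genes. The blood vessel classes held 105 KPC and 126 PyMT cells in artery (Gja5, Sema3g), 1297 and 2597 in capillary (Car4, Cd300lg), 640 and 360 in venule (Ackr1, Selp) and 1302 and 1991 in tip (Apln, Angpt2), and 42.6% of KPC and 47.7% of PyMT barcodes met no rule. Of the markers that the rules did not use, the artery marker Bmx stood at 151 CPM in the artery class of KPC and 59.4 in that of PyMT. CPM are the UMIs of the gene, scaled to the same total of UMIs in every class. The capillary marker Gpihbp1 did not set the PyMT capillary class apart, at 1076 CPM against 1168 in the tip class. The class chosen by Krt8 and Krt18 had Krt19 at 2789 CPM in KPC and 1.02 CPM in PyMT, so it is named by its genes and not as tumor cells.

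Among the 4 blood vessel classes, artery held the highest level of 8 of the 10 genes in KPC and of 9 in PyMT, as CPM. Tip held the lowest level of 7 genes in KPC and of all 10 in PyMT on that scale. The share of all genes highest in artery or lowest in tip was not counted on any scale. Artery held the fewest UMIs of the 4 classes, 323473 in KPC and 487653 in PyMT. Its top place was not separated from the next class for Bmpr2 and Id3 in KPC and for Acvrl1 and Id2 in PyMT. Artery over tip gave a positive log2 ratio for all 10 genes in both libraries, with intervals that reached below 0 for Acvrl1 in PyMT (0.44, -0.13 to 0.96) and for Bmp4 in KPC (1.20, -0.48 to 2.51). The low place of tip depended on the scale. As UMIs per cell, artery was highest for 8 genes in each library, while tip was lowest for 1 gene in KPC and 3 in PyMT. On that scale tip was highest for Eng in both libraries and for Acvrl1 in PyMT, where artery over tip turned to -0.65 (Eng, KPC), -0.22 (Eng, PyMT) and -0.32 (Acvrl1, PyMT). The plot of levels by class gives all classes with at least 50 cells.

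**Figure D1:**
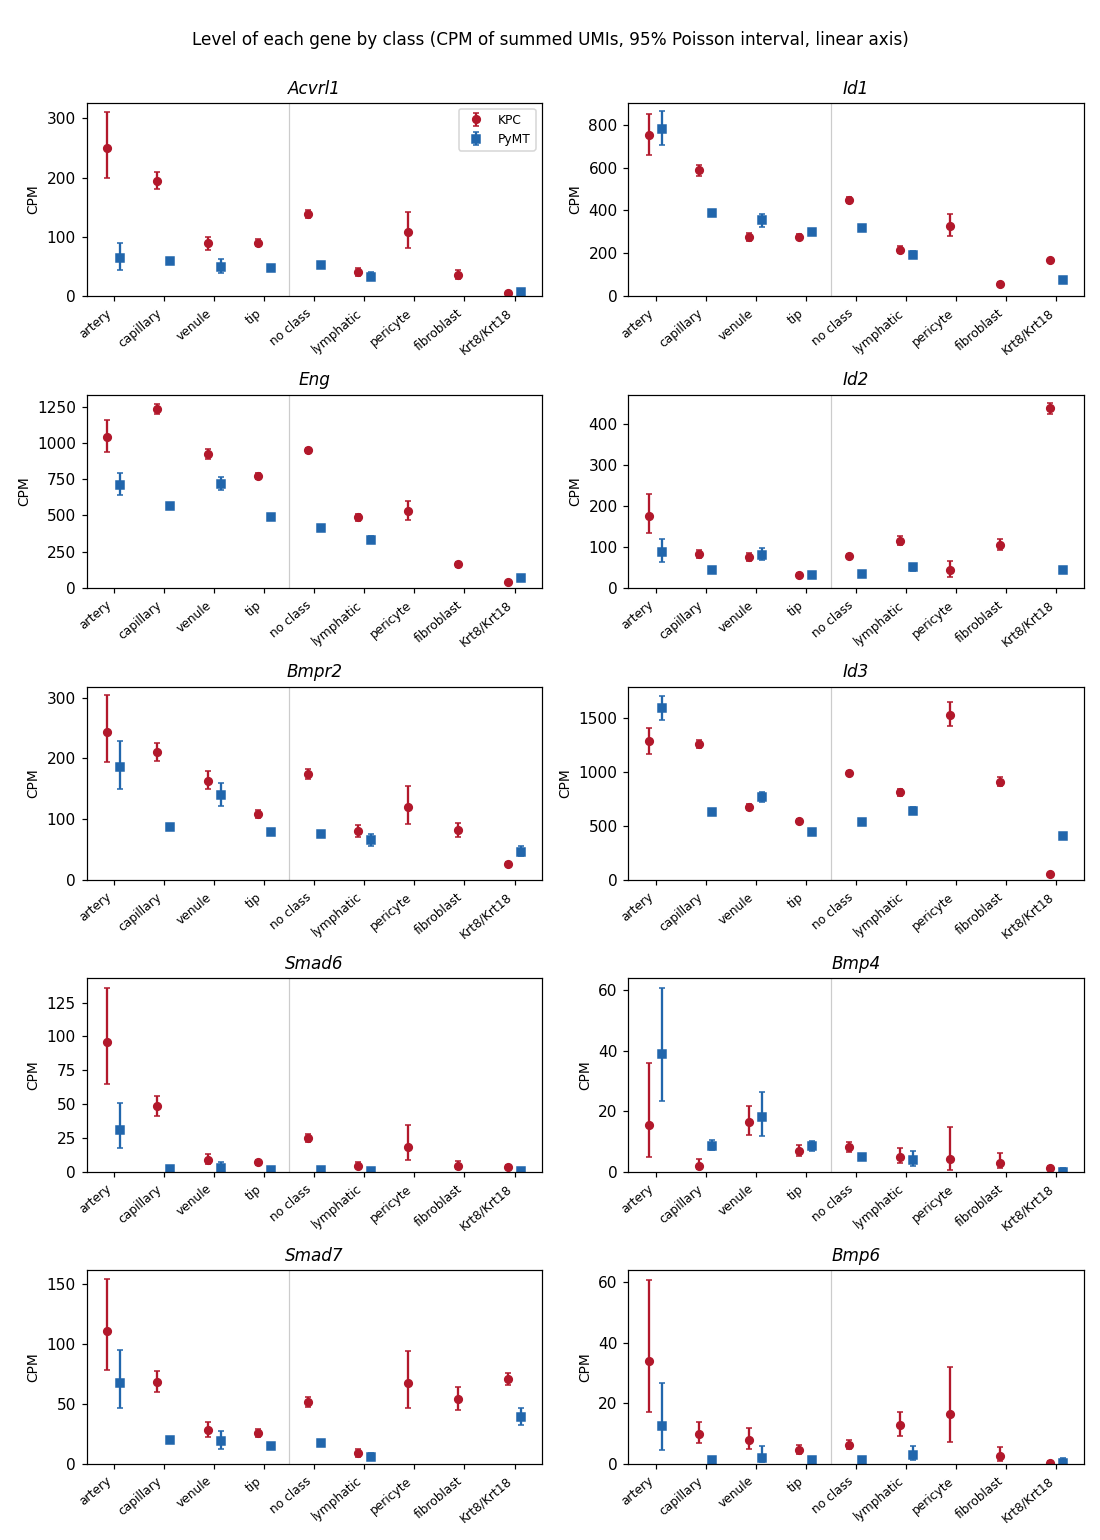
Level of each gene in each class as CPM of summed UMIs on a linear axis from 0, for KPC (red circles) and PyMT (blue squares), with exact Poisson 95% intervals that cover counting error only; classes under 50 cells are not drawn. As CPM, artery is the highest of the 4 blood vessel classes for 8 genes in KPC and 9 in PyMT (8 and 8 as UMIs per cell, where tip is highest for Eng), and Id2 reaches 437 CPM in the Krt8/Krt18 class of KPC. The share of all genes highest in artery was not counted.

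Acvrl1 encodes ALK1. In KPC it stood at 250.4 CPM in artery (interval 199 to 311), 195 in capillary (180.4 to 210), 90.2 in tip (83.9 to 96.9) and 88.8 in venule (78.3 to 100.3). In PyMT its level was 63.6 CPM in artery, 58.7 in capillary, 49.3 in venule and 46.9 in tip. KPC thus split into a high pair, artery and capillary, and a low pair whose members did not differ beyond counting error, while in PyMT no neighbor in the order was separated by its interval. The log2 ratio of tip over capillary was -1.11 in KPC (-1.26 to -0.96) and -0.32 in PyMT (-0.48 to -0.17). Gm16031 overlaps Acvrl1 on the opposite strand, and whether the counting used strand is not given in the sources used here.

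Eng encodes endoglin, which presents BMP9 to ALK1 and is dense on proliferating endothelium. Its KPC levels were 1237 CPM in capillary, 1045 in artery, 924 in venule and 773 in tip, and all 3 steps of that order were larger than counting error. In PyMT it reached 719 CPM in venule and 712 in artery, which did not differ beyond their intervals, followed by 568 in capillary and 492 in tip. Of Acvrl1, Eng and Bmpr2, Eng alone had its highest KPC level in capillary cells as CPM, whereas as UMIs per cell it was highest in tip, at 5.03 in KPC and 3.21 in PyMT. Fpgs overlaps Eng on the opposite strand.

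Bmpr2, the type II receptor whose loss underlies heritable pulmonary arterial hypertension, ran from 244 CPM in artery through 211 in capillary and 163 in venule to 108 in tip in KPC. In PyMT the values were 187 CPM in artery, 139 in venule, 86.3 in capillary and 79.2 in tip. Artery and capillary were not separated in KPC (log2 ratio 0.21, -0.14 to 0.55), whereas in PyMT artery was above capillary by a log2 ratio of 1.11 (0.79 to 1.42). The venule class lay above the capillary class in PyMT and below it in KPC.

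Smad6, an inhibitory Smad that competes with SMAD1 and SMAD5, had the widest fold range of the 10 genes among the blood vessel classes of each library. In KPC it stood at 95.8 CPM in artery (65.1 to 136), 48.4 in capillary (41.4 to 56.1), 8.88 in venule and 6.84 in tip. PyMT had 30.8 CPM in artery (17.2 to 50.7) from 15 UMIs, and between 1.38 and 2.67 CPM in the other 3 classes, which did not differ in neighboring pairs beyond counting error. Artery over capillary gave a log2 ratio of 0.99 in KPC (0.39 to 1.54) and of 3.70 in PyMT (2.70 to 4.64), and tip over capillary gave -2.82 (-3.28 to -2.39) and -0.77 (-1.70 to 0.12). With each cell thinned to 1500 UMIs, a Smad6 UMI was found in 11.6% of artery cells in KPC (95% Clopper-Pearson interval 5.72 to 20.3) and in 5.08% in PyMT (1.89 to 10.7), against 0.759% and 0% of Krt8/Krt18 cells. Without thinning these shares were 21.9% and 9.52% of artery cells, at median depths of 2485 and 3439 UMIs, and 4.66% and 0.528% of Krt8/Krt18 cells, at 12688.5 and 6939 UMIs. In capillary cells the thinned share was 7.14% in KPC (5.48 to 9.12), which overlaps the artery interval, and 0.522% in PyMT (0.278 to 0.890).

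Smad7, the second inhibitory Smad, which also blocks TGF-beta receptors, followed Smad6 with smaller steps. KPC held 111 CPM in artery, 68.2 in capillary, 28.0 in venule and 25.6 in tip. PyMT held 67.7 CPM in artery, 19.4 in capillary, 18.7 in venule and 14.7 in tip. Artery over capillary was 0.71 in KPC (0.16 to 1.22) and 1.80 in PyMT (1.23 to 2.33) as log2 ratios, and in both libraries venule and tip were not separated.

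Id1 is the best known direct target of the pathway, a helix-loop-helix protein without a DNA-binding domain that blocks differentiation factors. Its levels were 751 CPM in artery, 587 in capillary, 278 in tip and 276 in venule in KPC. In PyMT they were 781 CPM in artery, 388 in capillary, 354 in venule and 298 in tip. The artery levels of both tumor models overlapped in their intervals (660 to 852 and 705 to 864), and the capillary levels did not (562 to 613 and 377 to 399). Artery stood above capillary by a log2 ratio of 0.36 in KPC (0.16 to 0.55) and 1.01 in PyMT (0.86 to 1.16).

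Id3, a further Id protein of the same kind, measured 1283 CPM in artery, 1259.9 in capillary, 676 in venule and 544 in tip in KPC, and artery and capillary did not differ beyond counting error. PyMT artery cells held 1593 CPM (1483 to 1709), against 769 in venule, 633 in capillary and 448 in tip. Id2, whose protein has the same fold, measured 176 CPM in artery, 81.9 in capillary, 75.1 in venule and 31.1 in tip in KPC. Its PyMT levels were 88.2 CPM in artery, 80.7 in venule, 42.3 in capillary and 30.5 in tip. As CPM, all 3 Id genes were thus lowest in tip cells in PyMT, and in KPC this held for Id2 and Id3, while Id1 in tip and venule differed by a log2 ratio of 0.01 (-0.10 to 0.13). As UMIs per cell, Id2 was lowest in tip in both libraries and Id3 in PyMT, whereas Id1 in both libraries and Id3 in KPC were lowest in venule.

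The ligands were sparse. Bmp4, a BMP2-class ligand, had 48 UMIs in KPC venule cells (16.4 CPM, 12.1 to 21.7), 5 in artery (15.5 CPM), 57 in tip (6.72 CPM) and 7 in capillary (1.96 CPM). In PyMT, 19 UMIs gave 39.0 CPM in artery (23.5 to 60.8), 27 gave 18.0 CPM in venule, and capillary and tip stood at 8.58 and 8.38 CPM. Venule over capillary was 3.07 in KPC (1.91 to 4.46) and 1.07 in PyMT (0.40 to 1.69) as log2 ratios, so venule cells were above capillary cells in both libraries. Bmp6, a ligand known from the liver endothelium for control of iron, had 11 UMIs in KPC artery cells (34.0 CPM, 17.0 to 60.8), against 9.79 CPM in capillary, 7.85 in venule and 4.48 in tip. PyMT held 6 Bmp6 UMIs in artery (12.3 CPM, 4.52 to 26.8) and between 1.08 and 2.00 CPM in the other classes. Gm15217 and Gm15222 overlap Bmp4, and 4930579J19Rik and Txndc5 overlap Bmp6, each on the opposite strand.

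Counted at a fold of 2, with at least 30 UMIs over both sides, the artery class differed most from the capillary class in PyMT. There, 7 of 9 measured genes (Bmpr2, Smad6, Smad7, Id1, Id2, Id3 and Bmp4) were at least 2-fold higher in artery, against 8.15% of all genes tested, and none was 2-fold lower, against 8.77%. In KPC, 2 of 9 (Id2 and Bmp6) were 2-fold higher, against 5.72% of all genes, and 0 were lower, against 11.2%. The median log2 ratio of the measured genes was 1.11 in PyMT and 0.36 in KPC, beside 0.03 and -0.05 over all genes. Over the alternatives the count ran from 3 to 7 in PyMT and from 1 to 4 in KPC. It was 3 in PyMT when capillary cells were taken by Cd300lg alone. As UMIs per cell it was also 3 in PyMT, where Bmpr2 (0.77), Id1 (0.67), Id2 (0.72) and Id3 (0.99) fell under 2-fold. Here and in the comparisons below, shares of all genes were counted as CPM only, and counts as UMIs per cell have none beside them. The genes and class rules were chosen with earlier results of these data known, so all such counts are descriptions.

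Tip cells in KPC were 2-fold below capillary cells for 7 of 10 genes (Acvrl1, Smad6, Smad7, Id1, Id2, Id3 and Bmp6), against 6.72% of all genes, and above them for Bmp4 alone (log2 ratio 1.78, 0.64 to 3.16), against 3.28%. In PyMT none of 9 measured genes was past 2-fold in either direction, against 0.661% and 1.38% of all genes. The intervals of 7 lay below 0, and the share of all genes with such an interval was not counted. The median log2 ratio was -1.12 in KPC and -0.38 in PyMT, beside -0.07 and -0.0049 over all genes. Over the alternatives the count of genes past 2-fold in either direction ran from 2 to 9 in KPC and from 0 to 1 in PyMT. Car4, a gene of the capillary rule, stood at 379 CPM in the tip class of PyMT and at 15.8 in that of KPC.

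**Figure D2:**
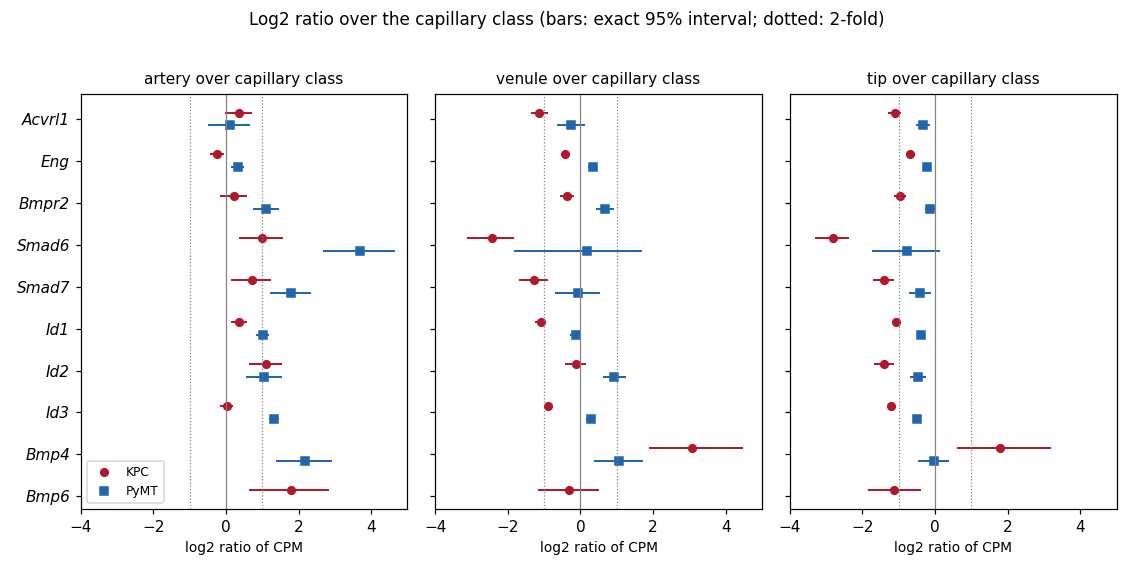
Log2 ratio of CPM of artery, venule and tip over capillary cells for each gene, KPC red and PyMT blue, with exact 95% intervals; dotted lines mark 2-fold, and genes under 30 UMIs over both sides are not drawn. Smad6 has the largest artery ratio in PyMT (3.70) and the lowest tip ratio in KPC (-2.82); on UMIs per cell the KPC tip ratios of Acvrl1, Eng, Bmpr2, Id1, Id3 and Bmp6 lie above 0.

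A tip cell held more UMIs than a capillary cell, by a log2 ratio of 1.24 in KPC and 0.42 in PyMT, so a lower share of its RNA need not be a lower amount. The rules ask for 3 marker UMIs for tip and 2 for capillary cells, and a deeper barcode meets such a sum more easily. How far this selection set the depths of the classes, and with them the ratios of UMIs per cell, was not tested. Counted as UMIs per cell, tip over capillary in KPC was 0.13 for Acvrl1, 0.56 for Eng, 0.28 for Bmpr2, 0.16 for Id1, 0.03 for Id3 and 0.11 for Bmp6, all turned from negative to positive. Smad6 (-1.58), Smad7 (-0.17) and Id2 (-0.16) stayed below 0 on that scale, and Bmp4 stood at 3.02. In PyMT, Smad6 (-0.35), Id3 (-0.08) and Id2 (-0.05) stayed below 0, and the other measured genes lay between 0.01 and 0.38. Smad6 was therefore below its capillary level in tip cells on both scales and in both libraries, although in PyMT, with 18 UMIs in tip and 30 in capillary cells, its CPM interval reached above 0.

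**Figure D3:**
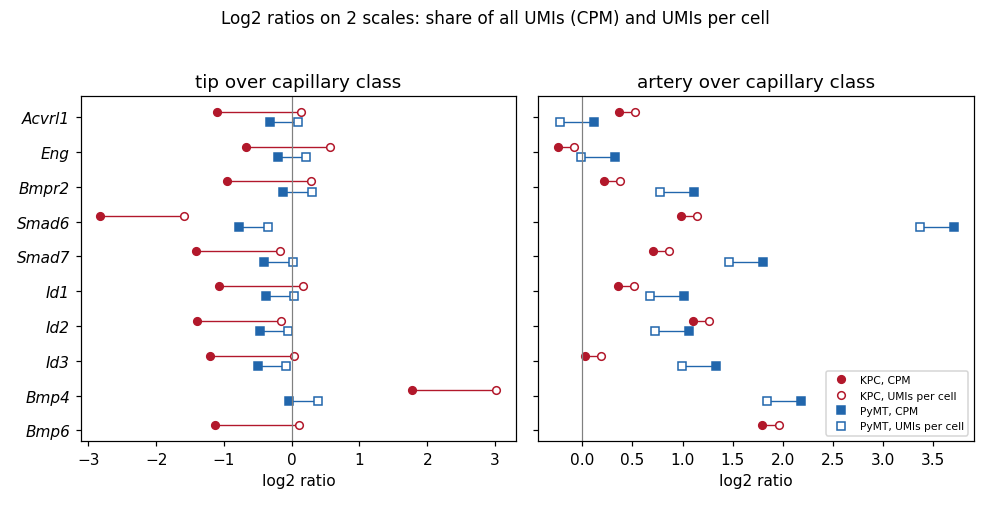
Log2 ratios of tip over capillary and of artery over capillary cells on the CPM scale (filled) and as UMIs per cell (open), KPC red and PyMT blue, for genes with at least 30 UMIs over both sides. In KPC the tip ratios move up by 1.24 between the scales and 6 of them cross 0, while the artery ratio of Smad6 in PyMT is 3.70 on one scale and 3.37 on the other.

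Venule cells, the post-capillary endothelium where leukocytes leave the blood, differed from capillary cells in opposite directions in the 2 libraries for Eng (-0.42 in KPC and 0.34 in PyMT), Bmpr2 (-0.37 and 0.69) and Id3 (-0.90 and 0.28). In KPC, 4 of 10 genes (Acvrl1, Smad6, Smad7 and Id1) were 2-fold lower in venule, against 5.57% of all genes, and Bmp4 was 2-fold higher, against 3.16%. In PyMT only Bmp4 of 9 measured genes was 2-fold higher, against 4.5% of all genes, and none was lower, against 3.44%. Smad6 gave a log2 ratio of -2.45 in KPC (-3.10 to -1.85) and of 0.18 in PyMT (-1.79 to 1.68), where the venule class held 4 Smad6 UMIs. A venule cell in KPC held more UMIs than a capillary cell by a log2 ratio of 0.73. Per cell Eng (0.31), Bmpr2 (0.36), Id2 (0.61), Bmp6 (0.41) and Bmp4 (3.80) were above 0 there. Of the 4 lower genes, Smad6 (-1.72) stayed past 2-fold per cell, while Acvrl1 (-0.40), Smad7 (-0.55) and Id1 (-0.36) did not. The count of genes past 2-fold ran from 2 to 6 in KPC and from 0 to 3 in PyMT over the alternatives.

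Lymphatic cells, taken by Mmrn1 and Prox1 although the sort left out podoplanin, numbered 802 in KPC and 633 in PyMT, with Lyve1 at 1846 and 872 CPM. Acvrl1 stood at 40.1 CPM in KPC and 32.6 in PyMT, Eng at 487 and 333, and Smad7 at 8.76 and 5.62. Against the 4 blood vessel classes together, 3 genes were 2-fold lower in KPC (Acvrl1, Smad6 and Smad7; background 9.33%) and 3 in PyMT (Smad6, Smad7 and Bmp4; background 6.65%). Id2 was 2-fold higher in KPC (1.08, 0.90 to 1.25; background 8.7%) and Bmp6 in PyMT (1.13, -0.18 to 2.25; background 10.7%), the latter from 8 UMIs in lymphatic cells. Id3 differed little from the blood vessel level, with log2 ratios of 0.11 (0.05 to 0.17) and 0.17 (0.09 to 0.24). Over the alternatives the count past 2-fold ran from 4 to 5 in KPC and from 2 to 6 in PyMT. It was 2 in PyMT with at least 100 UMIs over both sides. As UMIs per cell it was 6, all lower, since Acvrl1 (-1.07), Eng (-1.08) and Id1 (-1.24) passed 2-fold and Bmp6 (0.75) did not, and Id2 (-0.04) and Id3 (-0.21) turned below 0.

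Outside the endothelium the Id genes parted. Cells chosen by Krt8 and Krt18 held Id2 at 437 CPM in KPC (425 to 450) and 42.8 in PyMT (35.6 to 50.9), whereas Id3 stood at 50.4 CPM in KPC and 404 in PyMT. PyMT over KPC in that class was thus -3.35 for Id2 (-3.62 to -3.10) and 3.0 for Id3 (2.86 to 3.15) on the log2 scale. There, 3 of 8 measured genes were 2-fold lower (background 15.3%) and 1 was higher (background 11.3%). The class held unlike cells in the libraries, with 6 epithelial markers (Krt8 and Krt18 among them) summing to 11650 CPM in KPC and 2053 in PyMT. Cell kind and tumor model therefore cannot be told apart in these ratios. Against the blood vessel classes, Id2 alone was 2-fold higher in KPC (background 15.1%) and Smad7 alone in PyMT (background 9.83%), and 8 and 6 genes were 2-fold lower (background 23.3% and 18%). As UMIs per cell, where no background was counted, 5 and 6 genes were 2-fold lower. Smad7 was above the blood vessel level in both libraries, by log2 ratios of 0.90 (0.74 to 1.06) and 1.12 (0.81 to 1.41), and Id1 in KPC was below it as CPM (-1.12) and above it as UMIs per cell (0.46). In the KPC class, Acvrl1 and Eng were at 3.67% and 4.57% of their blood vessel level. For 6 pan-endothelial markers this share was 4.39% to 8.64%, and the source of the Acvrl1 and Eng counts was not tested.
In PyMT, Acvrl1 and Eng stood at 13.5% and 11.9% against 13.4% to 25.2% for the same markers. KPC pericyte cells (119 cells, by Notch3 and Higd1b) held Id3 at 1533 CPM (1425 to 1646). Id3 and Bmp6 were 2-fold above the blood vessel classes (background 8.82%) and none 2-fold below (background 7.55%). The Bmp6 log2 ratio of 1.22 came from 8 UMIs, and its interval (-0.03 to 2.25) reached below 0. The 6 pan-endothelial markers stood at 54.4% (Tie1) to 79.8% (Kdr) of their blood vessel level in the KPC pericyte cells. This class thus held much endothelial RNA, whose part in these values was not tested. As UMIs per cell the Id3 ratio of pericyte cells was 0.88. KPC fibroblasts (443 cells) held Id3 at 909.7 CPM and Id1 at 53.3 CPM, with none of the 10 genes 2-fold above the blood vessel classes (background 12.7%) and 6 below (background 19.6%). The PyMT pericyte and fibroblast classes held 27 and 28 cells and were not compared.

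Summed over the 4 blood vessel classes, levels of the receptors, the inhibitory Smads and Bmp6 were lower in PyMT than in KPC. Id1 did not differ beyond counting error as CPM in that sum, but it did within classes and in opposite directions. Over the 4 blood vessel classes together, Acvrl1 stood at 52.7 CPM in PyMT and 118 in KPC, Smad6 at 2.42 and 18.8, Smad7 at 18.0 and 37.8 and Bmp6 at 1.37 and 6.99. These 4 of 10 genes were 2-fold lower in PyMT, against 6.99% of all genes, and none was 2-fold higher, against 2.41%. The other receptors, Eng (-0.75, -0.79 to -0.72) and Bmpr2 (-0.73, -0.82 to -0.65), were lower by less. Id1 gave a log2 ratio of -0.04 (-0.08 to 0.01), with 351 CPM in PyMT and 359.6 in KPC, and Id3 and Id2 gave -0.40 and -0.46. As UMIs per cell Id1 was higher in PyMT by 0.22. The median log2 ratio of the 10 genes was -0.74, beside -0.11 over all genes, and as UMIs per cell the count of genes past 2-fold was 2 (Smad6 at -2.71 and Bmp6 at -2.10).

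Within classes, the count as CPM was highest in capillary cells, where 6 genes (Acvrl1, Eng, Bmpr2, Smad6, Smad7 and Bmp6) were 2-fold lower in PyMT, against 10.2% of all genes, and Bmp4 was higher (2.13, 1.04 to 3.48), against 4.33%. The capillary class was less set apart in PyMT. There, 6 capillary markers (Car4 and Cd300lg among them) summed to 3456.5 CPM in capillary and 2809 in tip cells, against 5314 and 2520 in KPC. Cell kind and tumor model therefore cannot be told apart in the capillary ratios. In tip cells, 2 of 10 were 2-fold lower, against 4.33%, and 0 higher, against 2.06%. In artery cells 2 of 8 measured genes were lower, against 5.1%, and 0 higher, against 2.29%. In venule cells the count was 1 of 9 lower, against 3.36%, and 0 higher, against 1.67%. Smad6 was lower in PyMT in each of these classes, with log2 ratios of -4.36 in capillary (-4.97 to -3.79), -2.31 in tip (-3.16 to -1.52), -1.64 in artery (-2.63 to -0.71) and -1.74 in venule (-3.71 to -0.21). Acvrl1 was also lower in all 4, from -1.98 in artery (-2.62 to -1.36) to -0.85 in venule (-1.24 to -0.47). Id1 was lower in capillary (-0.60, -0.67 to -0.52) and higher in venule (0.36, 0.20 to 0.52) and tip (0.10, 0.03 to 0.18). In artery it did not differ beyond counting error (0.06, -0.18 to 0.29), and in barcodes of no class it was lower (-0.50, -0.55 to -0.45). Per cell Id1 was higher in capillary too (0.23) and stood at -0.04 in barcodes of no class. Since a PyMT capillary cell held more UMIs than a KPC capillary cell by a log2 ratio of 0.83, per cell only Smad6 (-3.53) and Bmp6 (-2.22) of the 6 stayed 2-fold lower there, with Acvrl1 at -0.90, Smad7 at -0.98, Bmpr2 at -0.46 and Eng at -0.30. Per cell the count of genes 2-fold lower was thus 2 in capillary, tip and artery cells alike and 1 in venule cells, with no share of all genes counted on that scale. Barcodes of no class had 7 genes 2-fold lower in PyMT, against 10% of all genes, and 0 higher, against 3.64%. Per cell 3 were 2-fold lower there, again without a share of all genes. Lymphatic cells had 2 of 8 lower as CPM (Id2 and Bmp6), against 1.91%, and 0 higher, against 1.46%.

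**Figure D4:**
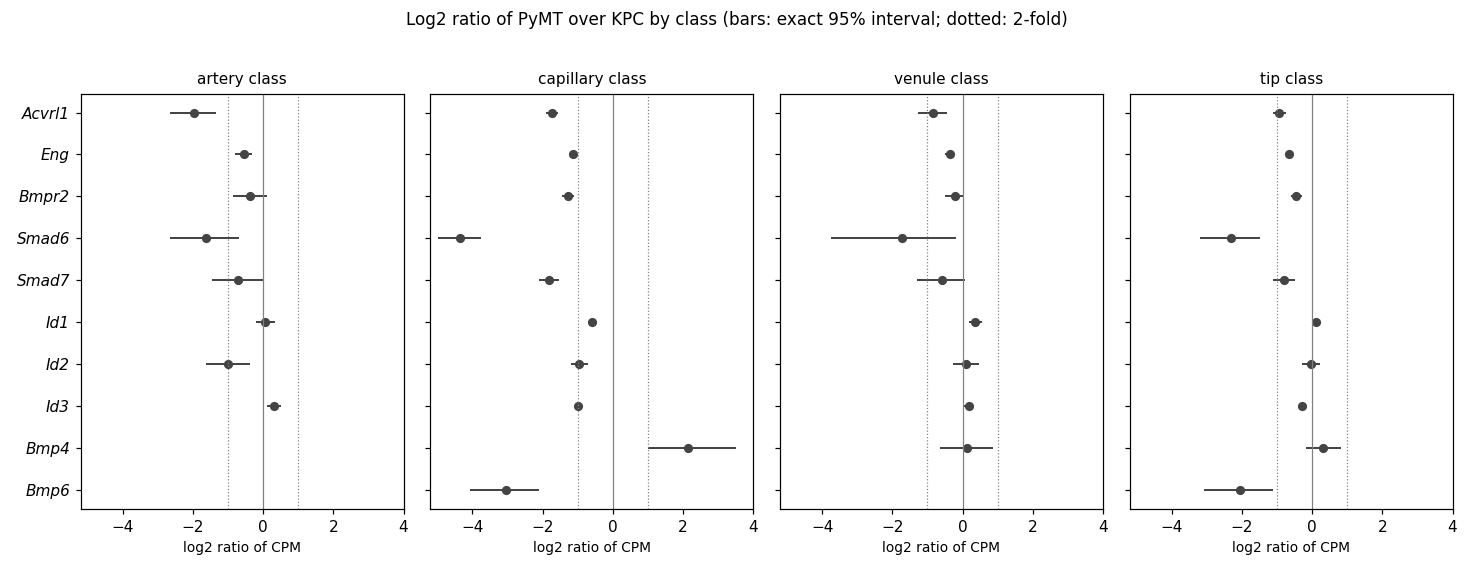
Log2 ratio of CPM of PyMT over KPC in each blood vessel class, with exact 95% intervals that cover counting error only, from 1 library per tumor model; dotted lines mark 2-fold, and genes under 30 UMIs over both sides are not drawn. Smad6 and Acvrl1 lie below 0 in all 4 classes (Smad6 from -4.36 to -1.64), and Id1 lies on both sides of 0. In capillary cells UMIs per cell put Id1 at 0.23, and capillary markers set that class apart less in PyMT than in KPC.

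Cells with an Id1 UMI held an Id3 UMI more often than cells without it in each blood vessel class of both libraries when every cell was thinned to 1500 UMIs. In KPC tip cells the share was 60.6% of 376 cells with Id1 (55.5 to 65.6) and 41.0% of 898 cells without it (37.7 to 44.3). PyMT capillary cells gave 60.4% of 969 (57.2 to 63.5) and 43.4% of 1523 (40.9 to 45.9). The intervals were apart in those classes and in PyMT tip cells (43.6% and 36.4%), and they overlapped in artery and venule cells of both libraries and in KPC capillary cells (81.7% and 74.1%). The share with an Id2 UMI was also higher in cells with Id1 in each class, but its intervals overlapped throughout. In PyMT capillary cells it was 7.74% (6.14 to 9.61) and 5.06% (4.01 to 6.28), in KPC capillary cells 15.2% and 10.6%, and in KPC tip cells 4.26% and 3.56%, and the differences were not tested. Smad7 and Smad6 shares were also higher with Id1, except for Smad7 in PyMT artery cells (7.79% with and 9.76% without) and Smad6 in KPC venule cells (0% and 1.18%). Genes outside the 10 were not counted in this way, so whether other pairs differ less is not known. The KPC capillary class lost 471 of 1297 cells to the thinning and the PyMT capillary class 105 of 2597.

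**Figure D5:**
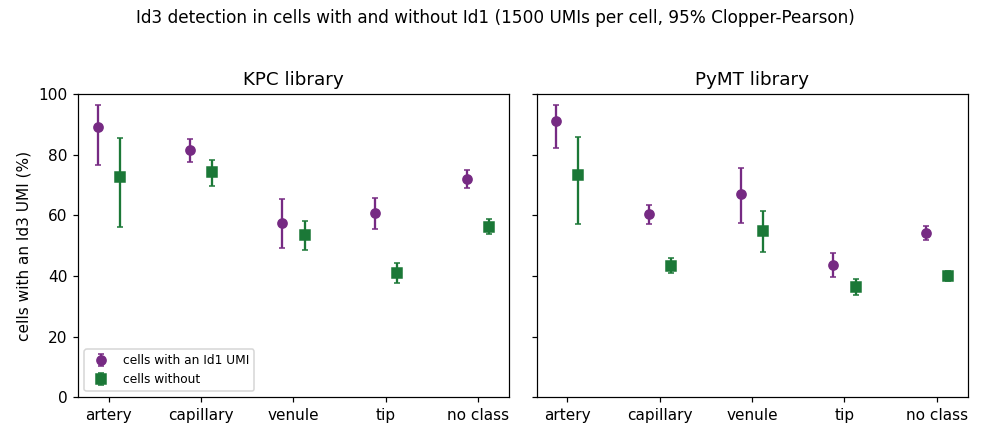
Share of cells with an Id3 UMI among cells with (purple) and without (green) an Id1 UMI, by class and library, after thinning each cell to 1500 UMIs, with 95% Clopper-Pearson intervals; cells of a class come from 1 library and are not replicates. The share is higher with Id1 in every class drawn, with intervals apart in KPC tip (60.6% and 41.0%) and PyMT capillary cells (60.4% and 43.4%).

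Cycling cells were taken by Mki67 and Top2a among the blood endothelial classes and the barcodes of no class. As CPM they lay below the other endothelial cells for all 10 genes in KPC and for 8 in PyMT. The PyMT exceptions were Eng (0.03, -0.01 to 0.08) and Id2 (0.09, -0.07 to 0.25). In KPC the intervals of all 10 genes lay below 0, from -0.26 for Eng (-0.31 to -0.22) to -1.41 for Smad6 (-1.84 to -1.01), with 2 genes past 2-fold (Smad6 and Bmp6) lower, against 8.12% of all genes, and 0 higher, against 4.35%. In PyMT this held for 6 of 10 genes, with 1 2-fold lower (Bmp6, -1.43, -2.93 to -0.21), against 3.75%, and 0 higher, against 4.2%. The share of all genes with an interval below 0 was not counted in either library. Id1 gave -0.39 in KPC (-0.46 to -0.32) and -0.15 in PyMT (-0.20 to -0.10). The median over the 10 genes was -0.66 in KPC and -0.16 in PyMT, beside -0.13 and -0.03 over all genes. A cycling cell held more UMIs, by a log2 ratio of 1.26 in KPC and 0.81 in PyMT, and as UMIs per cell 9 genes in KPC lay above 0, with Smad6 at -0.15, and 9 in PyMT, with Bmp6 at -0.62. All genes move up by those log2 ratios on that scale, and their share above 0 was not counted. Cycling cells were also taken by a UMI sum that deeper barcodes meet more easily, and its part in these depths was not tested.

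A further 51 genes of the pathway, listed beside the 10, were read in the same comparisons. Gdf2 and Bmp10, which encode the ALK1 ligands BMP9 and BMP10, had 0 UMIs in every class of both libraries, which allows up to 0.196 CPM in the KPC and 0.108 CPM in the PyMT blood vessel classes (3 UMIs). In artery over capillary, 8 of 24 measured genes in KPC and 9 of 25 in PyMT were 2-fold higher, beside 5.72% and 8.15% of all genes. In each library 2 were lower, beside 11.2% and 8.77%. Of the higher genes, 4 in each library were listed as further targets, a list that holds Hey1, Jag1 and Efnb2, and 3 in each as extracellular inhibitors. The paper counts Hey1 and Efnb2 among markers of capillaries or arteries. The number higher in artery cells is therefore in part set by the choice of list. Among receptors outside the 10 genes, 0 of 3 (KPC) and 1 of 3 (PyMT) were higher. Among the signal Smads, 0 of 3 were higher and 1 was lower in each library. Of 23 pathway genes measured in both libraries, 7 were past 2-fold in the same direction in both, against 4.77% of all genes. Those named by size are Mgp, a BMP-binding matrix protein (7.63 in KPC and 5.85 in PyMT, as log2 ratios), Tmem100, an ALK1 target (5.18 and 5.99), the Notch ligand Jag1 (3.56 and 3.21), the Notch and BMP target Hey1 (1.96 and 2.59) and the BMP-binding Fstl1 (2.39 and 1.99).
In venule over capillary, 4 of 25 were past 2-fold in the same direction in both libraries, against 2.47% of all genes. Mgp (4.27 and 3.71) and the BMP antagonist Nbl1 (1.58 and 2.29) were higher, and Hey1 (-3.12 and -2.25) and Efnb2 (-2.89 and -1.17), the arterial ephrin, were lower. In tip over capillary 0 of 26 were, against 1.02%. In lymphatic over blood vessel cells 7 of 28 were, against 11.1%, among them Tmem100 (2.36 and 4.28), the extracellular modulator Twsg1 (2.29 and 1.85) and Nbl1 (1.60 and 3.20), which were higher, and Bmp2 (-1.97 and -1.43) and Inhba (-1.21 and -1.71), which were lower, Inhba from 3 UMIs or fewer in lymphatic cells and with intervals across 0.

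Between the tumor models, the pathway genes with the largest ratios over the blood vessel classes, chosen after their values were seen, were Id4 and Bmp2. Id4, the remaining Id gene, stood at 31.2 CPM in KPC from 478 UMIs and at 0.469 CPM in PyMT from 13 (log2 ratio -6.06, -6.98 to -5.27). KPC capillary cells held Id4 at 89.2 CPM, against 12.5 in tip and 16.4 in venule, an order shared with Smad6 in that library except in artery, where Id4 had 5 UMIs. Bmp2, a ligand, went the other way, with 71.9 CPM in PyMT and 10.00 in KPC (2.85, 2.61 to 3.09).

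Across 16 class profiles (the 9 groups of KPC and the 7 of PyMT with at least 50 cells, barcodes of no class included), the 3 receptor genes had the most similar levels among the members. Pearson's r of log2(CPM + 10) was 0.92 for Acvrl1 and Bmpr2, 0.91 for Acvrl1 and Eng and 0.89 for Eng and Bmpr2. Id1 and Id3 gave 0.44 and Id2 and Id3 gave -0.37. These are descriptions over profiles that share libraries, and they include classes with little endothelial RNA. Among 7305 genes with at least 500 UMIs in each library, the closest to Acvrl1 were Adamts1 (0.98) and Hoxb4 (0.97), to Eng Nbdy and Prkch (both 0.97), to Bmpr2 Atp2b4 and Synpo (both 0.94) and to Smad7 Ier2 (0.92) and Galnt10 (0.91). For Id1 they were Itsn2 (0.95) and Grasp (0.94), for Id2 Me1 (0.88) and Clcc1 (0.88) and for Id3 Nsd1 (0.95) and Tmem30a (0.94). The other members did not have 500 UMIs in each library themselves, and their closest genes were Slc3a2 (0.97) and Rapgef2 (0.95) for Smad6 and mt-Atp6 and Adipor2 (both 0.88) for Bmp4. For Bmp6 the closest was D10Jhu81e (0.94).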

How the data were processed

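Endothelial sorts from KPC and PyMT tumors, 1 library each, were sequenced with 10x Chromium. The methods name v3 chemistry where they describe the sort and v2 where they describe the libraries, as the labels do. The authors aligned reads to mm10 with Cell Ranger (3.0 in the submitters' processing notes, 3.0.2 in the matrix header) and deposited UMI counts per gene and barcode as whole numbers, without normalization and with other cell types still present.

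Barcodes with 500 or more detected genes and a mitochondrial share below 10% were kept. Classes were assigned in the order tumor (Krt8 + Krt18, 5 UMIs or more), fibroblast (Col1a1 + Col1a2, 10), lymphatic (Mmrn1 + Prox1, 3), pericyte (Notch3 + Higd1b, 2), venule (Ackr1 + Selp, 3), artery (Gja5 + Sema3g, 2), tip (Apln + Angpt2, 3) and capillary (Car4 + Cd300lg, 2). No doublet caller was run, and 728 KPC (7.59%) and 1237 PyMT (10.5%) barcodes that met more than 1 rule were left out as an alternative.

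UMIs were summed per class and scaled to CPM, with exact Poisson intervals for levels, conditional binomial intervals for ratios and Clopper-Pearson intervals for shares, all at 95% (Python 3.11.15, numpy 2.4.6, scipy 1.17.1, pandas 2.3.3, matplotlib 3.10.9). A class at 0 UMIs was set to a floor of 3 UMIs and given as a bound. With 1 library per tumor model there was no test: ratios with at least 30 UMIs over both sides were counted at a fold of 2 and read against all genes as CPM. The share of all genes was not counted as UMIs per cell or under the other alternatives. Positions are from GENCODE M21 (GRCm38) and promoters from RefSeq. All 10 genes are described, pathway genes are named when past 2-fold the same way in both libraries (at most 5 per comparison, by mean size), and likeness names 2 genes per member. The members, lists and class rules were chosen with earlier results of these data known.

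The method was tested on class sums simulated as Poisson counts, with known log2 ratios of 2 for the changed genes. Variation between cells and misassigned barcodes were not simulated, so the share of intervals that contained the ratio speaks to counting error only. For artery over capillary in PyMT (10281 genes), 93.4% of the changed genes and 7.79% of the unchanged genes passed 2-fold, and 96.6% of the intervals contained the simulated ratio. For tip over capillary in KPC (10378 genes) these were 99.5%, 0.688% and 95.6%. Alternatives covered the barcode filter, doublets, depth, class thresholds and order, the scaling, low UMIs, and cycling or immune barcodes. Leaving out shared barcodes, Cd300lg alone for capillary cells, and UMIs per cell were chosen after seeing the data. An allele and a gene similar in level to a member are not reported here.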

Additional observations from a re-analysis of the deposited data

Results flagged for a closer look

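Of the endothelial comparisons, 4 gave intervals on opposite sides of 0 in KPC and PyMT, and the difference between the tumor models was not tested, since each had 1 library. Eng in venule over capillary cells had a log2 ratio of -0.42 in KPC and 0.34 in PyMT. Bmpr2 in the same comparison gave -0.37 and 0.69, and Id3 gave -0.90 and 0.28. Eng in artery over capillary cells gave -0.24 in KPC and 0.32 in PyMT. As UMIs per cell, Eng (0.31) and Bmpr2 (0.36) in KPC venule over capillary cells were positive, and Eng in PyMT artery over capillary cells was -0.01, so those opposite directions were present on the CPM scale only. Id3 was -0.14 in PyMT venule over capillary cells when capillary cells were taken by Cd300lg alone. In all 4 the capillary class is the shared denominator.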

How the results depend on the processing

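The number of genes past 2-fold depended on several settings. With a stricter barcode filter (1000 genes or more, mitochondrial share below 5%) it was 3 (venule, KPC), 0 (venule, PyMT), 1 (artery, KPC) and 5 (tip, KPC), all over capillary cells. Without barcodes that met more than 1 class rule it was 3 (venule, PyMT) and 1 (tip, PyMT). Thinning to 1500 UMIs gave 4 (artery, PyMT). Thresholds raised by 1 UMI gave 4 (artery, KPC) and 1 (tip, PyMT). The reversed class order gave 2 (venule, KPC), 3 (venule, PyMT), 4 (artery, KPC) and 5 (tip, KPC). The mean of per-cell CPM gave 2 (venule, PyMT) and 1 (tip, PyMT). It was 1 (artery, KPC) without cycling barcodes, and with at least 100 UMIs over both sides 1 (artery, KPC) and 2 (lymphatic, PyMT). Cd300lg alone gave 3 (artery, PyMT) and 1 (tip, PyMT). UMIs per cell gave 2 (venule, KPC), 0 (venule, PyMT), 3 (artery, PyMT), 2 (tip, KPC) and 2 (PyMT over KPC), and reversed tip over capillary in KPC for Acvrl1 (0.13), Id1 (0.16), Id3 (0.027) and Bmp6 (0.11) and Id1 in Krt8/Krt18 over blood vessel cells (0.46). For other settings than UMIs per cell, none of the ratios past 2-fold changed sign. Many ratios did leave the interval of the main setting, which covers counting error only. This held for 66 of 142 ratios under thinning and 51 of 152 with the mean of per-cell CPM. It held for 37 with the reversed class order and 33 without barcodes that met more than 1 rule. With UMIs per cell 73 left it, beside the 5 reversed, and without shared or immune barcodes 0 did. The cause of these changes was not tested. Leaving out a replicate was not possible with 1 library per tumor model. No paired analysis was possible because the groups share 1 replicate number. Low UMI counts over the blood vessel classes limited Smad6 (67) and Bmp6 (38) in PyMT, and Bmp4 in both libraries (264 in PyMT and 117 in KPC). Under thinning, ratios with 0 UMIs on a side gave no value.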
